A study of Homo sapiens with 2 samples.

Results

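INSL4 and 9 genes tied to the transcription factor CREB were followed in A549, a line derived from a human lung adenocarcinoma. The genes are INSL4, CPS1, NR4A1, NR4A2, NR4A3, PDE4B, PDE4D, SIK1, CRTC2 and CREB1, that is 10 of the 25031 genes with rows for both libraries. They were chosen by name with their levels in these libraries known, so every level and ratio of theirs is a description. A gene's value is the sum over its RefSeq transcripts and over stranded transcripts, assembled from the reads, that share an intron with them.

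The study compared total RNA from A549 cells carrying a control shRNA against LacZ, a bacterial gene absent from human cells, with RNA from A549 cells carrying an shRNA against PSPC1, a paraspeckle RNA-binding protein. Both cultures are the same line in the same serum-containing medium. Each group holds 1 library, so no difference has a replicate check and no test between groups is possible. Whether the shRNA cells were pools or clones, and how long they carried the shRNA, is not stated in the labels. A549 is known to lack functional LKB1, the kinase encoded by STK11, in both groups alike, and no library here has LKB1 restored.

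LKB1 activates a family of kinases that includes the salt-inducible kinases SIK1, SIK2 and SIK3. Active salt-inducible kinases phosphorylate the CRTC coactivators and keep them out of the nucleus. Without LKB1, CRTC proteins can enter the nucleus and bind CREB at cAMP response elements, and the target genes include SIK1, the NR4A receptors and cAMP phosphodiesterases, which feed back on the pathway. INSL4, a placental hormone of the relaxin family, is known as one of the genes expressed at a high level in LKB1-deficient lung cancer cells.

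Levels are in FPKM, fragments per kilobase of transcript per 1e6 mapped fragments, each with the distance to the bounds of a deposited 95% interval. These intervals hold the error of counting fragments and of assigning them to transcripts, not the spread between cultures. PSPC1 itself stood at 31.5 ± 1.25 FPKM in shLacZ and 17.7 ± 0.858 FPKM in shPSPC1, 56.3% of the control. Depth was 56.2 (shLacZ) and 57.1 (shPSPC1) when counted in 1e6 fragments, so that a transcript of 2000 bases at 1 FPKM had about 103 and 105 fragments. Of 11 markers of lung epithelium or A549, 7 reached 1 FPKM, among them KRT8, KRT18 and KRT7, while SFTPB, SFTPC and NKX2-1, markers of differentiated lung epithelium, were at 0.0550 FPKM or lower in both libraries. The summed level of this list was 7763 FPKM in shLacZ and 7634 FPKM in shPSPC1, with a median log2 ratio of -0.29 and 6 of the 7 genes below 0 by FPKM. ALDH1A1, the largest part of both sums, stood at 3198 ± 5247 FPKM in shLacZ and 2714 ± 9.28 FPKM in shPSPC1. The shLacZ sum is therefore uncertain. By FPKM the log2 ratio of ALDH1A1 was -0.24, and by estimated fragments it was 0.08. The exception by FPKM was AKR1B10, an aldo-keto reductase abundant in A549, at 1072 and 2131 FPKM, a log2 ratio of 0.99 just short of the rule of size given below. The part of these markers in the results was not tested. Of 6 leukocyte markers CD68 and CD14 reached 1 FPKM and PTPRC was at 0.0037 FPKM in both libraries, with sums of 17.9 and 10.8 FPKM. None of 8 fibroblast and endothelial markers reached 1 FPKM. In a bulk library, fewer cells with a transcript and less of it per cell cannot be told apart.

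The promoters shown first are those of the 3 genes with a core cAMP response element and a single RefSeq start. Each line is the 250 bases before the start in the RefSeq table of GRCh38.p14, and capitals mark TGACG or its reverse complement CGTCA, the core of the response element, searched on both strands. The full element TGACGTCA contains both cores, and a full element would be marked as a whole. The INSL4 window is chr9:5231169-5231418 on the plus strand, the SIK1 window is chr21:43427132-43427381 on the minus strand and the NR4A3 window is chr9:99821635-99821884 on the plus strand.
INSL4: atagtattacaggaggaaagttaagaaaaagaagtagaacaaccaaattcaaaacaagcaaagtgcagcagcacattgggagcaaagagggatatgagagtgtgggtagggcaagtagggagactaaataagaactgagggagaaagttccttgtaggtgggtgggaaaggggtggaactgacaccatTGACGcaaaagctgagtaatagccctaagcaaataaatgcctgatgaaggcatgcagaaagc
SIK1: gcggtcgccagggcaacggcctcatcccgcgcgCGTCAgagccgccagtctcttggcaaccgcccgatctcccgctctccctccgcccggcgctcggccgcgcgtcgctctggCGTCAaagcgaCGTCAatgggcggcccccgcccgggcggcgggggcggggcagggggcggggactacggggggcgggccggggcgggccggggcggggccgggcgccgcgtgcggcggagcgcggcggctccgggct
NR4A3: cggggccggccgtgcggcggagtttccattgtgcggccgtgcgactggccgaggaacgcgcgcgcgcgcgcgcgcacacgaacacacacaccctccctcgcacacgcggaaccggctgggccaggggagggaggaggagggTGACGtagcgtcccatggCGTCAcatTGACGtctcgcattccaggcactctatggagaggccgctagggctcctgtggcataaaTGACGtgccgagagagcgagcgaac

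INSL4 had 1 core, beginning 62 bases before the start. SIK1 had 3, beginning 217, 137 and 126 bases before it. NR4A3 had 4, at 109, 91, 83 and 25 bases. SIK1 and NR4A3 thus both had 3 or more cores, as did 1.01% of 35116 RefSeq promoters of this length. PDE4D had 1 core, at 57 bases, in 1 of its 8 windows. The 3 windows of CPS1, the 2 of NR4A1, the 6 of PDE4B and the 1 of CREB1 held none. In all, 8 of the 10 genes matched the table with 23 windows, of which 4 (17.4%) held a core, against 21.2% of all promoters. The full element was in none of the 23 windows and in 1.65% of all promoters. A match of letters is not a binding site, and no window was matched to the start that A549 cells used.

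INSL4 was the only one of the 10 genes that rose in shPSPC1 by the rule of size, which asked for at least 1 FPKM in the higher library, a log2 ratio, after adding 1 FPKM, of 1 or more in size, and separate intervals. It went from the third highest of the 10 to the highest. Of the 11513 genes at 1 FPKM or more in either library, 3.64% passed the rule, 1.67% as higher and 1.97% as lower. CREB1, CRTC2, PDE4B, PDE4D and CPS1 stood within 0.13 of no difference on the log2 scale, SIK1 was lower at -0.35 and NR4A1 higher at 0.48, both short of the rule. Over the 10 genes the median log2 ratio was 0.06, against 0.01 over all expressed genes, with 7 values above 0 and 3 below. Within 0.4 of 0 lay 8 of the 10 genes, as did 81% of all expressed genes. The 2 sets are not alike, since the 10 include NR4A2 and NR4A3, which were under 1 FPKM in both libraries. The added 1 FPKM draws their ratios towards 0. NR4A3 had a log2 ratio of 0.17 at a 2.80-fold difference by FPKM, or 2.23-fold by fragments. Its RefSeq transcripts alone were nearly level, at 0.0731 FPKM in shLacZ and 0.0833 FPKM in shPSPC1.

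**Figure D1:**
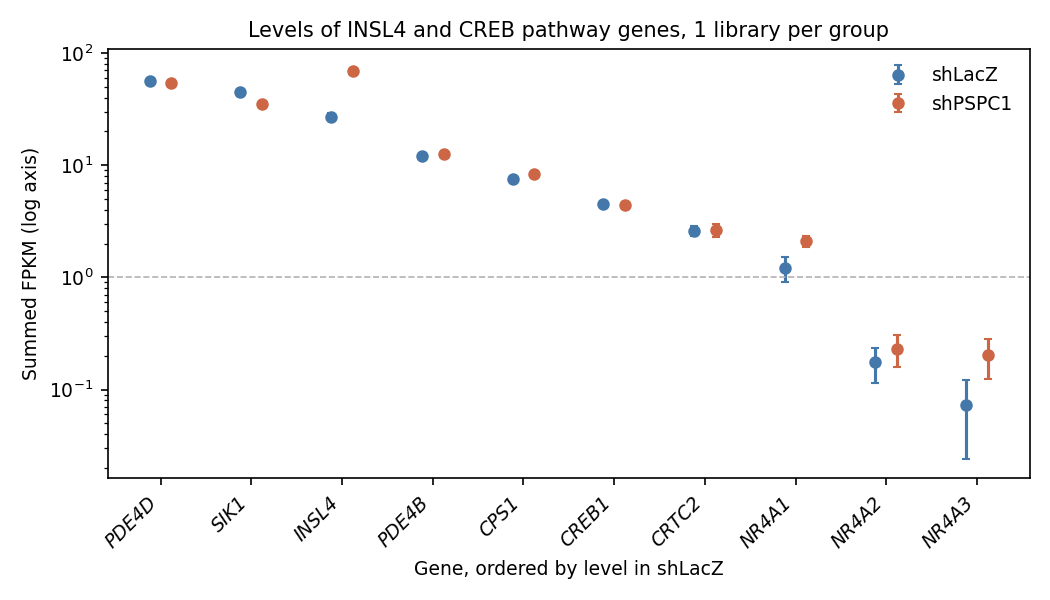
Level of each of the 10 genes in FPKM (log axis) in the shLacZ and shPSPC1 libraries, 1 library each, with bars for the 95% interval within a library. INSL4 moves from 27.1 to 68.8 FPKM, while most of the other genes keep their place.

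The order of the levels in shLacZ was PDE4D, SIK1, INSL4, PDE4B, CPS1, CREB1, CRTC2, NR4A1, NR4A2 and NR4A3. The intervals of NR4A2 and NR4A3 overlapped, and those of all other neighbours in this order did not. In shPSPC1 the order was the same but for INSL4, now first, and the intervals of CRTC2 and NR4A1 overlapped as well as those of NR4A2 and NR4A3. Intervals of shLacZ and shPSPC1 did not overlap for 5 of the 8 genes at 1 FPKM or more, and for 51.6% of all expressed genes. By fragments these were 5 of the 8 and 48.7%.

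INSL4 lies on the plus strand of chromosome 9 at 5231419-5233967 in the files' coordinates. The labels name no genome build, and the names of unplaced scaffolds are those of GRCh37. Its level was 27.1 ± 2.25 FPKM in shLacZ and 68.8 ± 3.59 FPKM in shPSPC1. These intervals lie far apart, with a 2.53-fold higher level in shPSPC1 and a log2 ratio of 1.31, or at least 1.12 from the facing bounds of the intervals. As estimated fragments, a measure less exposed to which transcripts were assembled, INSL4 had 762 in shLacZ and 1854 in shPSPC1, a log2 ratio of 1.24. By fragments 1.77% of expressed genes were called higher, and by both measures 1.09%. The log2 ratio of INSL4 lay above that of 98.91% of expressed genes.

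The RefSeq transcript of INSL4 has 2 exons of 301 and 314 bases. It stood at 22.7 ± 2.08 FPKM in shLacZ and 59.8 ± 3.33 FPKM in shPSPC1. An assembled transcript with the same intron was at 4.45 ± 0.851 FPKM in shLacZ, where it ended 280 bases past the RefSeq end, and at 8.94 ± 1.34 FPKM in shPSPC1, where it ended 123 bases past it and began 44 bases before the RefSeq start. Both libraries also held a 3-exon transcript with an added 176-base exon at 5231868-5232043, inside the RefSeq intron. It shares no intron with the RefSeq form and is outside the gene sum. The 3-exon form stood at 2.95 ± 0.588 FPKM in shLacZ and 9.13 ± 1.07 FPKM in shPSPC1, a 3.09-fold higher level without overlap of the intervals. It made up 9.82% of the FPKM at the locus in shLacZ and 11.7% in shPSPC1, so the RefSeq intron and the added exon were higher in shPSPC1 together. With the 3-exon form included, INSL4 stood at 30.1 FPKM in shLacZ and 77.9 FPKM in shPSPC1, a log2 ratio of 1.34.

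**Figure D2:**
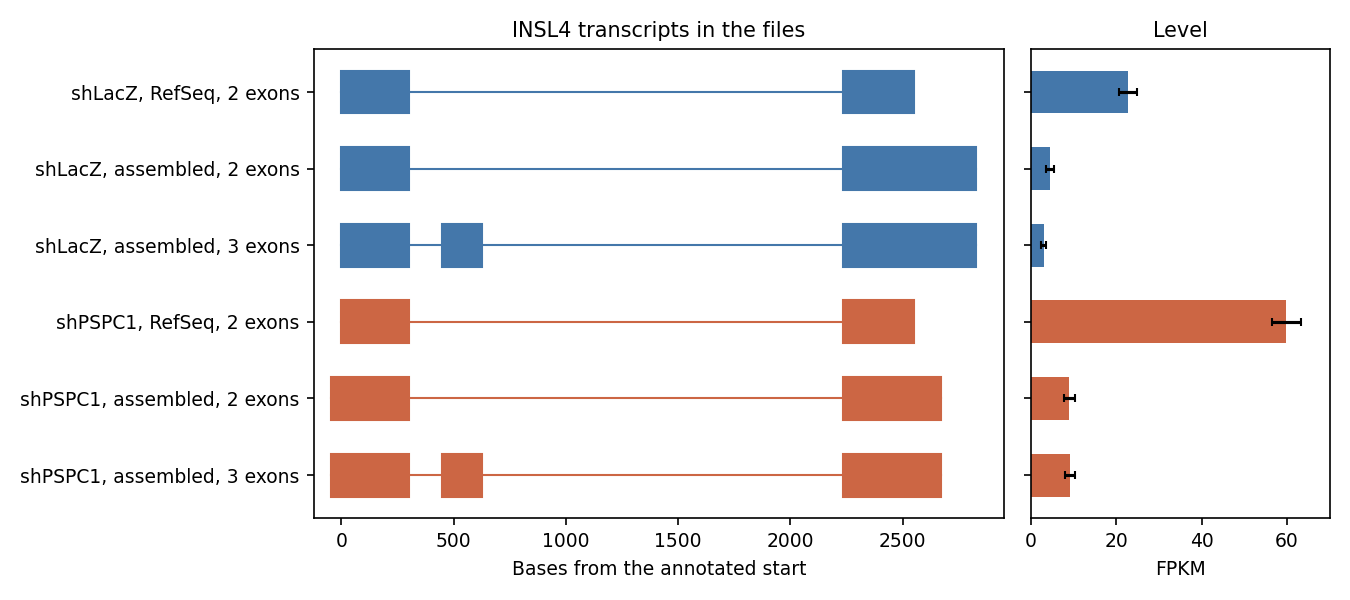
INSL4 transcripts in each library, drawn by distance in bases from the RefSeq start, with boxes for exons and the FPKM of each form. The 2-exon RefSeq form carries most of the level in both libraries (22.7 and 59.8 FPKM), and the 3-exon form with the added 176-base exon is present in both.

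INSL4 sits in a cluster of relaxin-family genes. None of the 8 neighbouring genes examined passed the rule of size, which 3.64% of all expressed genes passed. So few genes cannot show whether the locus differs from that share. The rule had no room to call INSL6, RLN1, RLN2 and CD274, which stayed under 1 FPKM in both libraries. INSL6, a testis-expressed relative next to INSL4, and RLN1, which encodes a relaxin, were listed at 0 in both libraries. RLN2, the gene of the circulating relaxin, was listed at 0 in shLacZ and stood at 0.476 ± 0.285 FPKM in shPSPC1. JAK2, a cytokine receptor kinase, stood at 2.11 and 3.03 FPKM, a log2 ratio of 0.37 by FPKM and 0.15 by fragments. On the other side PLGRKT, a plasminogen receptor, stood at 24.6 and 16.0 FPKM, a log2 ratio of -0.59 by FPKM and -0.32 by fragments. Next to it CD274, which encodes the immune checkpoint ligand PD-L1, stood at 0.964 and 0.593 FPKM. Beyond JAK2, on the INSL6 side, RCL1, a nucleolar RNA-processing protein, stood at 12.6 and 12.5 FPKM, and AK3, a mitochondrial adenylate kinase, at 32.2 and 16.1 FPKM, a log2 ratio of -0.96 by FPKM and -0.24 by fragments.

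Few placental genes other than INSL4 gave a signal. Of 20 trophoblast markers, 3 reached 1 FPKM in either library, and ERVFRD-1, PSG3, CSH1, CSH2, GH2 and LGALS13 were listed at 0 in both. The summed level of the list was 24.9 FPKM in shLacZ and 20.6 FPKM in shPSPC1, most of it PAPPA, a protease that cleaves IGF-binding proteins, at 21.5 and 18.7 FPKM. CGB8, a chorionic gonadotropin beta gene, fell from 2.103 ± 0.447 to 0.269 ± 0.161 FPKM, while its near-identical copy CGB5 stood at 0.876 and 1.26 FPKM, so their split is uncertain. CGA, the alpha subunit shared by glycoprotein hormones and a classical CREB target in placenta, was listed at 0 in shLacZ and at 0.0299 FPKM in shPSPC1.

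Of the relaxin and insulin family and its receptors, 4 of 17 measured genes reached 1 FPKM, and INSL4 was the only one past the rule. The median log2 ratio of the list was 0.07. IGF1R, the IGF-1 receptor, stood at 11.6 and 6.74 FPKM, and its log2 ratio was -0.71 by FPKM and -0.26 by fragments. IGF2R stood at 10.6 and 9.75 FPKM, and INSR, the insulin receptor, at 1.42 and 1.87 FPKM.

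By the distance of log2 levels over the 2 libraries, the protein-coding genes nearest to INSL4 were TMEM106B, PRSS23, POP4, RCN2 and PERP. PRSS23, a secreted serine protease, rose from 28.1 ± 0.848 to 76.0 ± 1.21 FPKM, a log2 ratio of 1.40 by both measures. TMEM106B, a lysosomal membrane protein, went from 28.8 to 72.1 FPKM, but its log2 ratio was 1.29 by FPKM and 0.02 by fragments. POP4 was at 0.06, RCN2 at 0.11 and PERP at 0.23 by fragments. The 5 genes were picked by FPKM in these libraries, so their likeness to INSL4 by FPKM was set by the choice. By fragments, only PRSS23 among them had a ratio near that of INSL4.

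CREB1, the transcription factor, stood at 4.51 ± 0.220 FPKM in shLacZ and 4.45 ± 0.219 FPKM in shPSPC1, with overlapping intervals and 2433 and 2438 fragments. The gene lies on the plus strand of chromosome 2 at 208394616-208470284. Its 8-exon form held 64.4% of its level in shLacZ (2.91 ± 0.170 FPKM) and 58.6% in shPSPC1 (2.61 ± 0.164 FPKM), and its 9-exon form held the rest at 1.61 ± 0.139 and 1.84 ± 0.145 FPKM. The intervals of each form overlapped between the libraries.

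CRTC2, the coactivator that salt-inducible kinases hold in the cytoplasm, was also level between the libraries. It stood at 2.60 ± 0.271 FPKM in shLacZ and 2.63 ± 0.337 FPKM in shPSPC1. CRTC2 maps to chromosome 1, minus strand, at 153920148-153931132. In shLacZ the RefSeq transcript carried all of it. In shPSPC1 an assembled transcript whose first exon began 319 bases downstream, with an altered first intron, carried 44.6% (1.17 ± 0.239 FPKM), and the RefSeq transcript carried 1.46 ± 0.238 FPKM.

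In the wider CREB family, of 15 measured genes 12 reached 1 FPKM, none passed the rule of size in either direction, and the median log2 ratio was 0.13, or 0.07 by fragments. CRTC3, another coactivator of the family, stood at 3.40 ± 0.262 and 5.16 ± 0.326 FPKM, a log2 ratio of 0.49. CRTC1 was at 0.516 and 1.05 FPKM, but by fragments its log2 ratio was -0.015, with 200 fragments in shLacZ and 197 in shPSPC1. CREM, a CREB relative also counted among the CREB targets, stood at 12.7 and 12.5 FPKM over all its transcripts. CREB3, a membrane-bound relative of the endoplasmic reticulum, stood at 34.2 and 43.7 FPKM. ATF2, which binds related DNA elements, was at 16.1 and 14.5 FPKM and CREBZF at 12.4 and 14.0 FPKM. ATF1, the closest relative of CREB1 beside CREM, was at 6.59 and 8.97 FPKM, for a ratio (log2) of 0.39 by FPKM and 0.08 by fragments.

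SIK1, a salt-inducible kinase that is both a CREB target and a brake on CRTC proteins, was the second most abundant of the 10 genes in shLacZ. It stood at 45.2 ± 1.03 FPKM in shLacZ and 35.1 ± 0.736 FPKM in shPSPC1. The intervals did not overlap, and the level in shPSPC1 was 0.778 of the control, a log2 ratio of -0.35, with 11359 and 9115 fragments. SIK1 maps to chromosome 21, minus strand, at 44834395-44847002. In shLacZ the level was split between the RefSeq transcript (19.6 ± 0.690 FPKM) and an assembled copy with the same 13 introns (25.5 ± 0.768 FPKM), and in shPSPC1 the RefSeq transcript carried it all. Read from the RefSeq transcript alone, the log2 ratio would be 0.81, the opposite direction.

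STK11, the LKB1 gene, had RNA in both libraries at 12.9 ± 0.543 and 14.1 ± 0.649 FPKM, which does not speak to its protein. SIK2 stood at 3.03 and 2.97 FPKM and SIK3 at 1.7995 and 2.61 FPKM. Of 23 measured genes of LKB1 and its kinases 19 reached 1 FPKM, none passed the rule of size, and the median log2 ratio was -0.02. PRKAA1, a catalytic subunit of AMPK, had the highest ratio among those named, at 18.5 and 28.0 FPKM and 0.57, but 0.04 by fragments. MARK3, a polarity kinase, showed the same gap between measures, with 0.46 by FPKM and 0.13 by fragments. PRKAG1, a regulatory subunit of AMPK, stood at 27.0 and 26.0 FPKM, and CAB39, the scaffold of the LKB1 complex, at 16.7 and 16.0 FPKM.

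**Figure D3:**
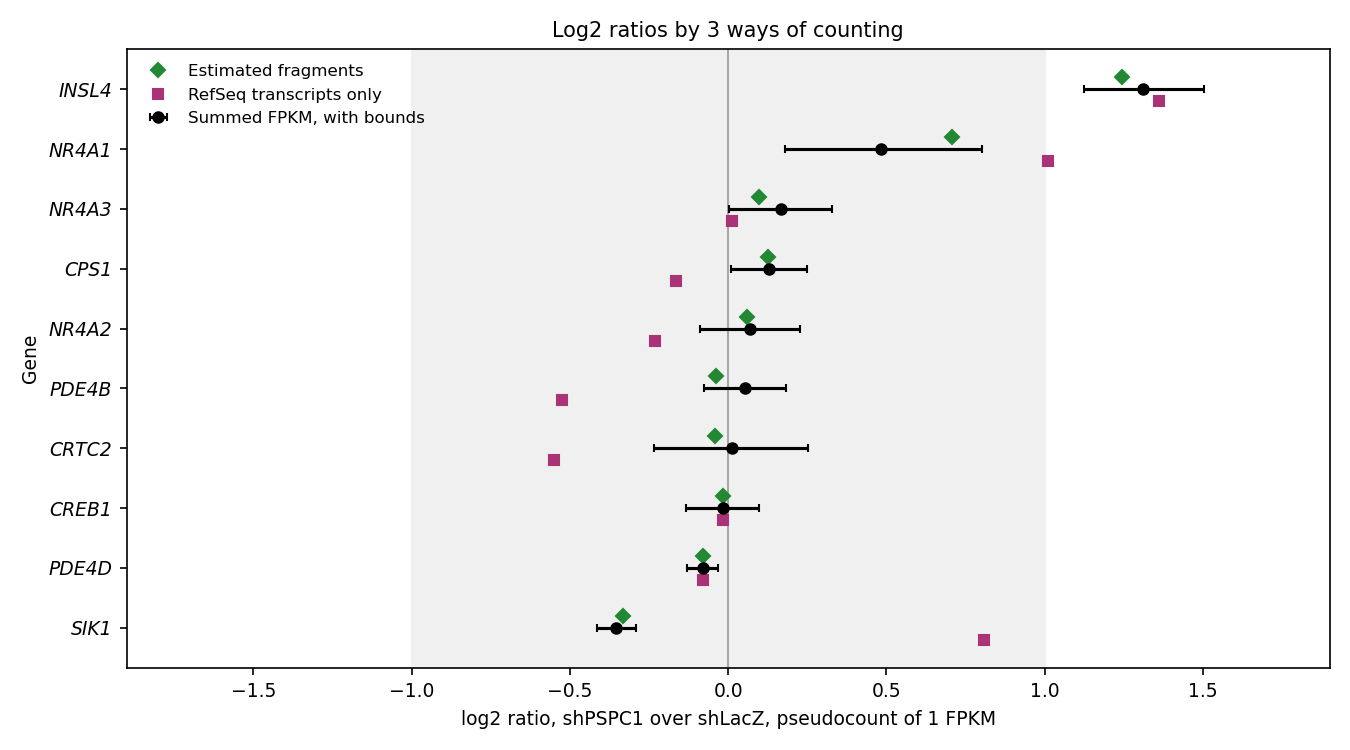
Log2 ratio of shPSPC1 over shLacZ for each of the 10 genes, by summed FPKM with its bounds (black), by estimated fragments (green) and by RefSeq transcripts alone (purple), with the grey band marking ratios under 1 in size. INSL4 lies outside the band by all 3 ways of counting, while SIK1 changes sign and NR4A1 moves to 1.01 with RefSeq transcripts alone.

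The 3 NR4A orphan nuclear receptors are immediate-early genes and classical CREB targets, and all were low in A549. NR4A1, on the plus strand of chromosome 12 at 52416616-52453291, stood at 1.22 ± 0.298 FPKM in shLacZ and 2.095 ± 0.249 FPKM in shPSPC1. The intervals did not overlap, but the log2 ratio of 0.48 was short of the rule. By fragments NR4A1 had 116 in shLacZ and 283 in shPSPC1, a 2.40-fold difference and a log2 ratio of 0.71 after the added 1 FPKM. The 7-exon RefSeq transcript went from 0.537 ± 0.143 to 2.095 ± 0.249 FPKM, and the remaining level in shLacZ came from short assembled transcripts of 2 and 3 exons at 0.332 and 0.346 FPKM. Read from the RefSeq transcript alone, NR4A1 passed the rule with a log2 ratio of 1.01.

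NR4A2 and NR4A3 stayed under 1 FPKM in both libraries, which gives the rule no room to call them. NR4A2, on the minus strand of chromosome 2 at 157180944-157189287, stood at 0.174 ± 0.0607 and 0.232 ± 0.0717 FPKM, from 33 and 43 fragments, with overlapping intervals. In shLacZ all of this lay on the RefSeq transcript, which was listed at 0 in shPSPC1. In shPSPC1 it lay on an assembled transcript with 1 intron of 510 bases in place of 389. NR4A3, on the plus strand of chromosome 9 at 102584137-102629173, stood at 0.0731 ± 0.0490 and 0.205 ± 0.0798 FPKM, from 19 and 43 fragments. In shPSPC1 2 assembled forms that shLacZ lacked held 31.6% and 27.7% of the NR4A3 level. The NR4A3 intervals did not overlap by FPKM and overlapped by fragments. The NR4A2 difference was therefore not resolved at these fragment numbers. NR4A3 had the lowest value of the 10 genes in both libraries, with intervals that overlapped those of NR4A2.

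PDE4D and PDE4B encode cAMP-specific phosphodiesterases, which break down cAMP and so limit the signal that activates CREB. PDE4D stood at 56.7 ± 1.01 FPKM in shLacZ, the highest of the 10 genes there, and 53.5 ± 0.903 FPKM in shPSPC1. The log2 ratio was -0.08, with intervals that did not overlap and 24417 and 23460 fragments. Rescaling without mitochondrial genes, a shift of 0.10 before the pseudocount, put the ratio of PDE4D at 0.01.

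PDE4D maps to chromosome 5, minus strand, at 58264865-59783925, and 3 of its 9 annotated transcripts were above 0. The 10-exon form starting at 58335339 went from 21.9 ± 0.565 to 18.4 ± 0.527 FPKM, or from 38.6% to 34.3% of the gene. The 15-exon form starting at 58882324 held 35.9% in both libraries, at 20.3 ± 0.684 and 19.2 ± 0.542 FPKM. The 15-exon form starting farther upstream at 59064438 went the other way, from 14.4 ± 0.491 to 16.0 ± 0.494 FPKM, or from 25.5% to 29.8%. Intervals of the first and the third form did not overlap between libraries.

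PDE4B, on the plus strand of chromosome 1 at 66258193-66840262, kept its sum but not its forms. It stood at 12.2 ± 0.570 FPKM in shLacZ and 12.6 ± 0.629 FPKM in shPSPC1, with overlapping intervals and 2681 and 2647 fragments. The 15-exon form starting at 66458390 went from 6.55 to 4.24 ± 0.335 FPKM, and the 10-exon short form starting at 66797793 from 5.60 ± 0.405 to 3.89 ± 0.348 FPKM, both without overlap of the intervals. An assembled 11-exon form with an added first intron of 589 bases, starting at 66797441, was found in shPSPC1 alone, at 4.51 ± 0.403 FPKM or 35.7% of the gene. The RefSeq transcripts alone therefore gave PDE4B a log2 ratio of -0.53, against 0.05 for the sum.

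**Figure D4:**
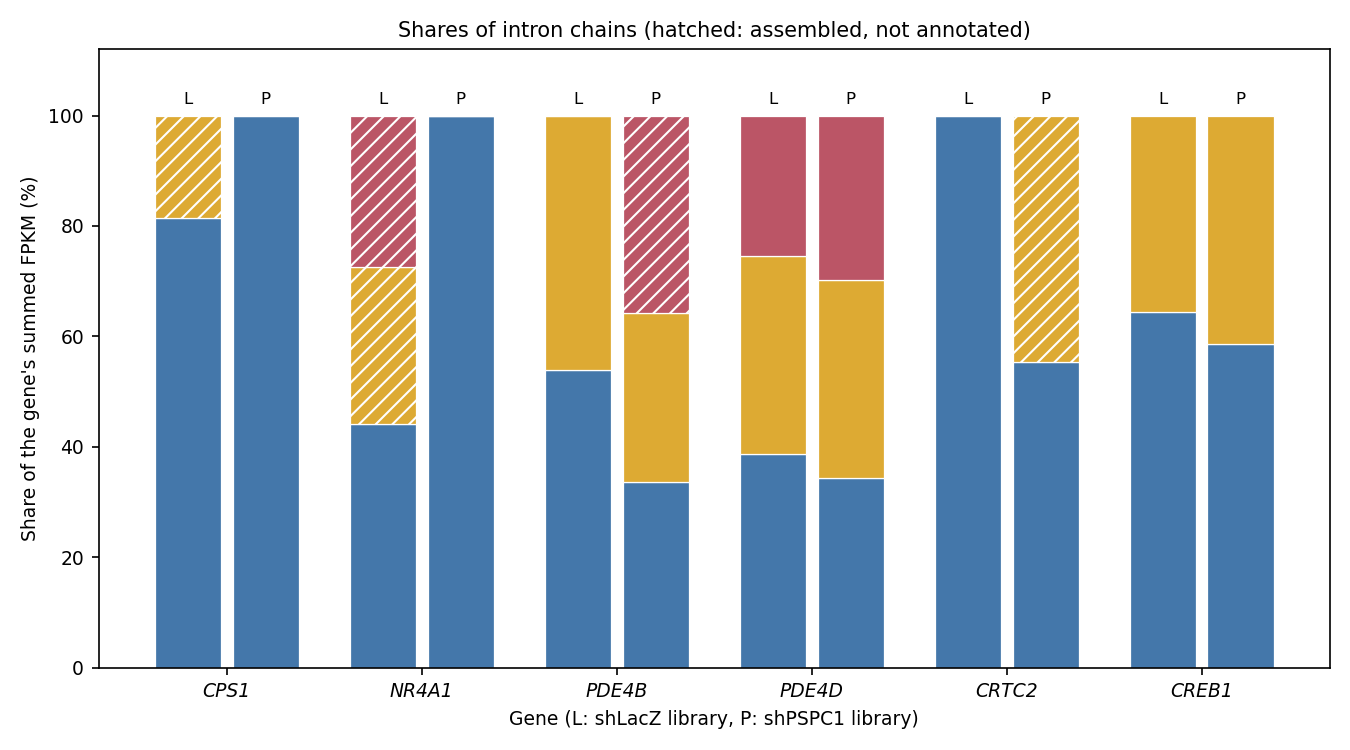
Share of each gene's FPKM held by each intron chain (transcripts with the same set of introns) in shLacZ (L) and shPSPC1 (P), in percent, with colours for the chains of a gene and hatching for assembled chains that RefSeq lacks. The shares of PDE4D and CREB1 forms move by a few points, while NR4A1, PDE4B, CRTC2 and CPS1 each hold a chain found in 1 library only.

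Several intron chains were compared for 6 genes expressed in both libraries, and in 3 of them, NR4A1, CRTC2 and PDE4B, the share of a chain differed by 30 points or more. The largest differences were 55.9 points for NR4A1, 44.6 for CRTC2 and 35.7 for PDE4B. Such a difference was seen in 40.2% of 7381 genes with several chains, so it is common between these files. At 5 FPKM or more in both libraries it was seen in 35.8% of 4659 genes, and PDE4B was the 1 member there. Chains of CPS1 differed by up to 18.5 points, those of CREB1 by 5.75 and those of PDE4D by 4.31.

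The full list of cAMP phosphodiesterases held 10 expressed genes of 16, with none past the rule of size and a median log2 ratio of 0.02. PDE3A, a phosphodiesterase inhibited by cGMP, stood at 4.30 ± 0.252 and 7.20 ± 0.326 FPKM, a log2 ratio of 0.63 by FPKM and 0.62 by fragments. PDE8A, a high-affinity cAMP phosphodiesterase, stood at 17.6 ± 1.20 and 25.7 ± 0.692 FPKM, with 0.52 and 0.53. Both were higher in shPSPC1 without overlap and short of the rule. PDE7A stood at 2.75 and 3.68 FPKM, PDE7B at 4.46 and 4.43, PDE1C at 3.93 and 3.63, PDE8B at 3.34 and 3.63, PDE10A at 2.24 and 2.13, and PDE3B at 1.17 and 1.04 FPKM.

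Upstream of CREB, 16 of 26 genes of cAMP production and protein kinase A reached 1 FPKM, none passed the rule of size, and the median log2 ratio was -0.12, or -0.04 by fragments. GNAS, the stimulatory G protein subunit, stood at 103 and 101 FPKM. PRKACB, a catalytic subunit of protein kinase A, was lower in shPSPC1 by both measures, at 7.20 ± 0.404 and 4.65 ± 0.319 FPKM and a log2 ratio of -0.54. PRKAR1A, a regulatory subunit, stood at 149 and 95.4 FPKM, with -0.64 by FPKM and 0.15 by fragments. PRKAR1B and AKAP12, a regulatory subunit and an anchoring protein, were at -0.71 and -0.61 by FPKM and at -0.19 and -0.21 by fragments. By FPKM 5 of the 16 ratios lay above 0 and 11 below. Among those above, PRKAR2A, another regulatory subunit, stood at 13.0 ± 0.565 and 18.4 ± 0.698 FPKM. Its log2 ratio was 0.47 by FPKM and 0.23 by fragments.

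CPS1, the mitochondrial carbamoyl phosphate synthetase that opens the urea cycle, is a liver enzyme also known from LKB1-deficient lung cancer. It lies on the plus strand of chromosome 2 at 211342406-211543831. CPS1 stood at 7.60 ± 0.355 FPKM in shLacZ and 8.41 ± 0.392 FPKM in shPSPC1, from 2387 and 2673 fragments. The intervals did not overlap, and the log2 ratio was 0.13, with bounds of 0.01 and 0.25. The whole level came from 38-exon transcripts starting at or near 211421323, while the 39-exon form starting at 211342406 and the short 28-exon form were listed at 0 in both libraries. In shLacZ 18.5% sat on an assembled chain that differed from RefSeq by an acceptor 1 base away. In shPSPC1 an assembled copy with the RefSeq introns held 2.99 ± 0.2496 FPKM, beside 5.42 FPKM on the RefSeq transcript, which stood at 6.20 FPKM in shLacZ. The RefSeq transcript alone gave a log2 ratio of -0.17, and the introns of RefSeq in both files gave 0.39.

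Most other liver genes were nearly silent, with FGB, the fibrinogen beta chain, as the exception. Of 10 liver markers only FGB reached 1 FPKM, at 8.25 ± 0.412 and 12.4 ± 0.501 FPKM. Its values were above those of CPS1 in both libraries, with intervals that overlapped in shLacZ. ALB was at 0.102 and 0.101 FPKM, and APOA1, APOB and OTC were listed at 0 in both libraries. The summed level of the list was 8.50 FPKM in shLacZ and 12.8 FPKM in shPSPC1.

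In the urea cycle and the linked carbamoyl phosphate enzymes 13 of 16 genes were expressed, with a median log2 ratio of -0.06 and 1 gene past the rule in each direction. ASS1, which joins citrulline and aspartate, stood at 26.8 ± 1.08 and 33.2 ± 1.20 FPKM, a log2 ratio of 0.30 by both measures. ASL, the next enzyme, rose from 2.57 ± 0.168 to 6.90 ± 0.609 FPKM by the rule, but its log2 ratio by fragments was -0.66, the opposite direction. ARG2, the mitochondrial arginase, stood at 2.76 ± 0.339 FPKM in shLacZ and was listed at 0 in shPSPC1, and it was called lower by both measures. Both calls rest on that same 0, whose interval has no width. ODC1, the first enzyme of polyamine synthesis, stood at 144 and 95.9 FPKM. UMPS, the last enzyme of UMP synthesis, stood at 34.5 and 32.7 FPKM, and GLUD1, glutamate dehydrogenase, at 34.2 and 28.0 FPKM.

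Of the 37 measured CREB targets 25 reached 1 FPKM. INSL4 was the only one past the rule of size, 13 ratios lay above 0 and 12 below, and the median log2 ratio was 0.04, or -0.04 by fragments, close to the 0.01 of all expressed genes. LINC00473, a long non-coding RNA also known from LKB1-deficient lung cancer, stood at 7.37 ± 0.577 and 12.1 ± 0.732 FPKM. Its log2 ratio was 0.65 by both measures, without overlap of the intervals and short of the rule. By FPKM this was the next highest of the list after INSL4, while by fragments NR4A1 lay between them at 0.71. NFIL3, a circadian repressor, followed LINC00473 at 1.78 ± 0.291 and 3.32 ± 0.348 FPKM.

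Of the further CREB targets described next, all but DUSP1 lay below 0 by both measures. DUSP1 was at 0.04 by FPKM and -0.04 by fragments. They are not a balanced pick, since 13 of the 25 expressed targets lay above 0 by FPKM. Among those 13, AREG was at 0.27 and BDNF at 0.25. JUNB, an AP-1 subunit, stood at 22.5 ± 0.983 and 11.5 ± 0.848 FPKM, a log2 ratio of -0.91 by both measures and just short of the rule. TIPARP, an ADP-ribosyltransferase, was at -0.60 by FPKM and -0.25 by fragments. PTGS2, the inducible cyclooxygenase, stood at 35.4 and 29.9 FPKM, RGS2, a regulator of G protein signalling, at 18.2 and 13.7 FPKM, and DUSP1, a MAP kinase phosphatase, at 34.0 and 35.1 FPKM. FOS, the prototype immediate-early target, was at 1.14 and 0.940 FPKM.

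**Figure D5:**
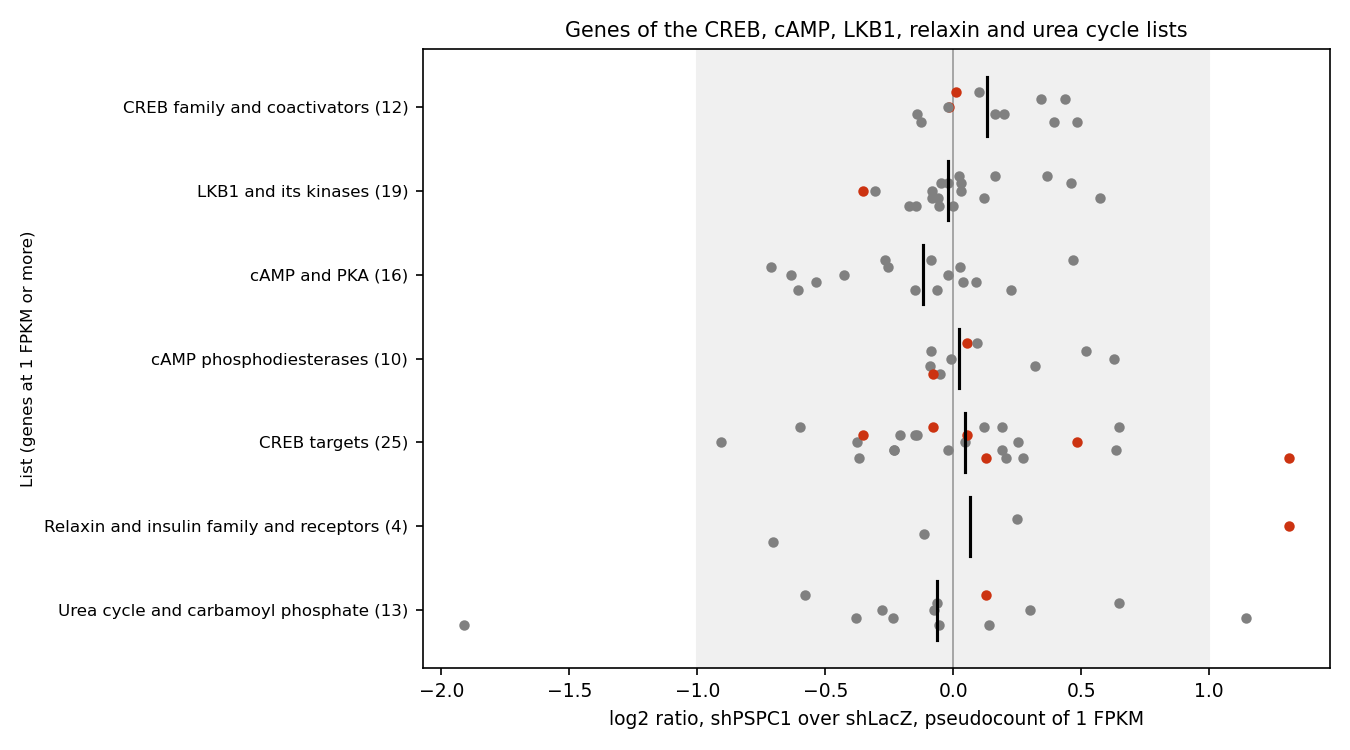
Log2 ratio of shPSPC1 over shLacZ for each expressed gene (1 FPKM or more in either library) of 7 context lists, each dot 1 gene (red for the 10 genes followed here), each bar a list's median and the grey band ratios under 1 in size. The medians lie between -0.12 and 0.13, and INSL4, at 1.31, stands at the upper end of the lists that hold it.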

How the data were processed

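RNA from 1 shLacZ and 1 shPSPC1 library of A549 cells was sequenced, with TopHat2 2.0.7, Cufflinks 2.1.1 and CASAVA 1.8.2 listed in the submitters' processing notes. Each deposited transcript list gives FPKM and 95% interval bounds that the authors computed with Cufflinks, per the file headers and attributes, and its deposited score column was not used. The lists hold 43212 and 43207 annotated RefSeq transcripts and 39901 and 47148 assembled transcripts (shLacZ and shPSPC1).

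Annotated transcripts were named by accession, with RefSeq and GENCODE tables used for names only. A stranded assembled transcript was joined to a gene by a shared intron, and 32066 and 39276 others stayed unassigned. Library strandedness and poly(A) selection are not given in the sources used here, so reads of antisense genes may not be told apart. A gene's FPKM is the sum over its transcripts, and its interval to each side is the root of the summed squared intervals. Log2 ratios have a pseudocount of 1 FPKM added to both libraries and so understate the change of low genes.

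Depth and mean fragment length (162 and 166 bases) were estimated from transcripts alone at their locus, whose intervals imply fragment numbers whole within 0.02 for 94.2% of 29032 and 94.5% of 35288. Estimated fragments are FPKM times effective length times depth. Ratios of them use the length of the gene's longest annotated transcript.

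The members, gene lists and rules were chosen with earlier results of these data known. All 10 members were named, and from each list the genes past the rule of size, the 4 highest in shLacZ and, in lists of 10 or fewer expressed genes, all of them. A gene that this rule names is not reported here. Other genes were named for their role or after their values were seen, such as LINC00473, NFIL3, JUNB, TIPARP, RGS2, CRTC3, ATF1, PRKACB, SIK2, SIK3 and the chromosomal neighbours of INSL4. Gene lists were described by counts and medians, with no test. The rule of size was tested on simulated data with the error of counting fragments only. The simulation held no error of transcript assembly or assignment and no spread between cultures. Calculations used Python 3.11.15, numpy 2.4.6 and pandas 2.3.3. Alternatives covered the pseudocount, the minimum FPKM, the fold, the transcripts summed, estimated fragments and the scaling.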

Additional observations from a re-analysis of the deposited data

How the results depend on the processing

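INSL4 kept its direction and its place past the rule of size under the 9 alternatives run for it, with log2 ratios from 1.24 to 1.41. The number of the 10 genes past the rule was 2, in place of 1, with RefSeq transcripts only, with the most abundant transcript only and with intron chains found in both files only, the added gene being NR4A1 at 1.01. With RefSeq transcripts only, the log2 ratios of CPS1 (-0.17), PDE4B (-0.53), CRTC2 (-0.55), SIK1 (0.81) and NR4A2 (-0.23) took the opposite sign to the summed value. By the most abundant transcript SIK1 was at 0.45, and rescaling without mitochondrial genes, a shift of 0.10 before the pseudocount, put PDE4D at 0.01 and CREB1 at 0.06. Over all genes, 192 were higher and 227 lower by the rule, against 114 and 149 with a minimum of 5 FPKM, 498 and 623 with a fold of 1.5, 518 and 520 with RefSeq transcripts only, and 108 and 143 without genes listed at 0 in 1 library. With 5 FPKM as the minimum, 1 of the 10 genes, in place of 3, had a chain whose share differed by 30 points. With RefSeq transcripts only, 1 gene of LKB1 and its kinases, 1 of cAMP and protein kinase A and 2 CREB targets passed the rule. In the urea cycle list 1 gene, in place of 2, passed by fragments and 1 among genes at 5 FPKM or more. The cause of these changes was not tested. No paired analysis was possible because each group holds 1 library, and for the same reason no replicate could be left out.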

Other observations

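Transcripts without a strand, mostly single-exon pieces, were left out of every gene value and were counted within the spans of the 10 genes. PDE4B held 6 such pieces in shLacZ, with 1057 fragments over 15989 bases, and 30 in shPSPC1, with 3049 fragments over 70805 bases. That is 66.1 fragments per kilobase of covered bases in shLacZ and 43.1 in shPSPC1. CREB1 held 3 pieces in shLacZ, with 48 fragments over 1332 bases, and 10 in shPSPC1, with 429 fragments over 14939 bases. PDE4D held 3 and 6 pieces, with 49 and 187 fragments. INSL4 and CPS1 held none in either library. Over 1987 expressed genes with at least 100 such fragments the median fold was 1.33, and 65.7% had more in shPSPC1. A fold as high as the 2.88 of PDE4B was seen in 26.1% of them, and one as high as the 8.79 of CREB1 in 15.3%. These pieces are recorded as values, since their source was not tested.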
